A study of Mus musculus with 6 samples.

Results

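The genes described here are 32 lysosomal genes of the mouse, taken from the RNA-seq table of 20950 entries by their gene symbols. All 32 symbols were found. They code for enzymes that work inside the lysosome, for proteins of its membrane, and for progranulin, which is carried into it. RNA was sequenced from C2C12 cells, an established mouse myoblast line that stops dividing and fuses into myotubes when serum is withdrawn. Growing cells were held in DMEM with 10% FBS (fetal bovine serum). Once semi-confluent, other cultures were moved to DMEM with 2% HS (horse serum) or with 0.2% FBS, each with or without added exosomes prepared from FBS. The study's methods set the added exosomes to the amount held by 10% FBS, and the preparations came from precipitation kits. Of the 6 libraries, 2 were of cells in 0.2% FBS + exosome. Each of the other 4 conditions, called 10% FBS, 2% HS, 2% HS + exosome and 0.2% FBS, had 1 library. The line is a single cell line, and nothing in the labels says that the replicate libraries came from separate cultures, so p-values measure only the spread between these 2 libraries, which may be technical.

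Lysosomes are acidic compartments in which proteins, glycans and lipids delivered by endocytosis and autophagy are broken down. Most of the soluble enzymes receive a mannose 6-phosphate tag in the Golgi that routes them to the lysosome, and inherited loss of single enzymes causes storage diseases. One of these is Pompe disease, in which skeletal muscle accumulates glycogen. Many lysosomal genes carry a short palindromic sequence near their start sites, called the CLEAR element, which is bound by the transcription factors TFEB and TFE3.

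Values are FPKM, fragments scaled to transcript length and to the number of mapped reads, so levels may be compared between genes per length. Changes are differences in log2(FPKM + 1), and understate the change of genes with low values. Among the 32 genes, 30 had a mean of at least 1 FPKM over the 6 libraries and entered the tests with 10726 genes in all. The depth estimated from low FPKM values lay between 33700000 and 39500000 reads per library. The muscle markers Des and Myog were high in all 6 libraries, at 543 to 1061 FPKM for Des and 350.2 to 719.8 FPKM for Myog. All 4 endothelial, all 4 epithelial and all 3 adipocyte markers had a mean below 1 FPKM, and so did 9 of the 11 macrophage and leukocyte markers.

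The lysosomal genes spanned a wide range of levels. Psap was the highest, with a mean of 784 FPKM over the 6 libraries, and it encodes prosaposin, the precursor of the saposins that help enzymes to reach sphingolipids. Lamp1, an abundant glycoprotein of the lysosomal membrane, followed at 625 FPKM. Next came 3 cathepsins, the aspartic protease Ctsd at 596 FPKM and the cysteine proteases Ctsl at 519 FPKM and Ctsb at 408 FPKM, and then Lamp2, the other main membrane glycoprotein, at 211 FPKM. At the other end, Cln3 and Ctsf stayed below 0.1 FPKM in every library. Cln3, which encodes the membrane protein lost in juvenile Batten disease, was between 0.0111 and 0.081 FPKM. Ctsf, a further cysteine cathepsin, was listed at 0 in 4 libraries and at 0.0429 and 0.0666 FPKM in 10% FBS and in replicate 2 of 0.2% FBS + exosome. At an estimated 0 to 8.29 reads per library, both were below the level needed for testing, and they are left out of the counts of changes. Cd68, a membrane glycoprotein abundant in macrophages, was low as well, from 1.19 FPKM in 10% FBS to 2.00 FPKM in replicate 2 of 0.2% FBS + exosome. Its estimated reads numbered 48.4 to 70.6 per library.

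**Figure D1:**
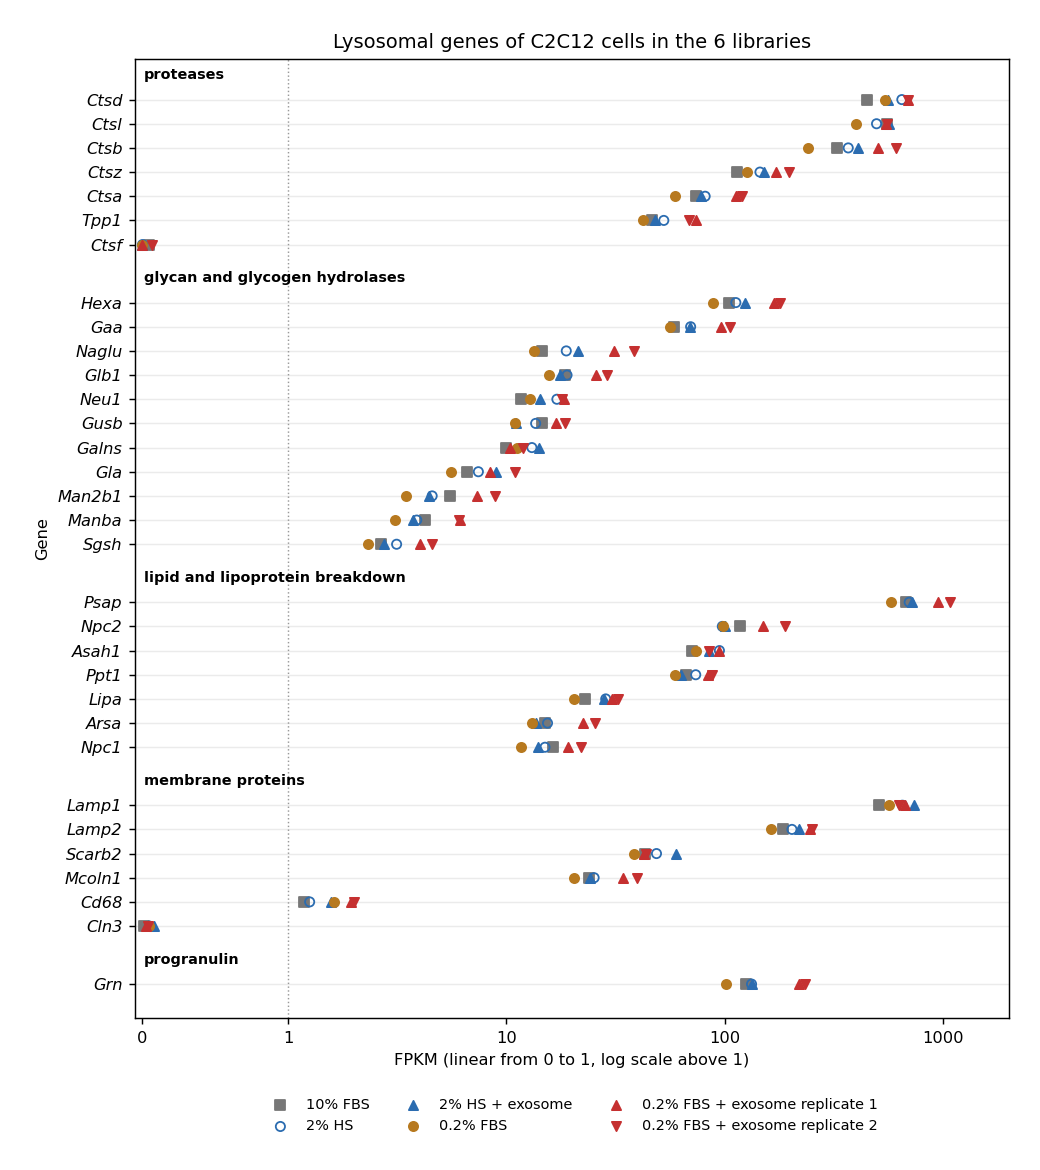
FPKM of the 32 lysosomal genes in each of the 6 libraries, by role and ordered by mean level within a role; the axis is linear from 0 to 1 and logarithmic above, and each symbol is 1 library. Both libraries of 0.2% FBS + exosome lay to the right of the other 4 in 24 of the 30 genes tested, against 27.8% of all genes. Cln3 and Ctsf lay near 0 in all libraries.

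Summed over the 32 genes, the level was 3684 FPKM in 10% FBS, 4159 in 2% HS, 4295 in 2% HS + exosome and 3379 in 0.2% FBS. The 2 libraries of 0.2% FBS + exosome reached 5051 and 5382 FPKM. These sums were 0.786%, 0.881%, 0.916%, 0.686%, 1.09% and 1.04% of all FPKM in the same order, so the 0.2% FBS library held the lowest share and the 2 libraries with exosomes in that medium the highest. In bulk RNA, more cells of a type and more RNA per cell cannot be told apart.

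The comparison of 0.2% FBS + exosome with 0.2% FBS asked how exosomes changed these transcripts in low serum. Lysosomal genes were mostly higher with exosomes. The test was limma, a linear model fitted to all genes with Benjamini-Hochberg adjustment, and it called 17 of the 30 genes higher and 0 lower at an adjusted p below 0.05. Among all genes tested it called 8.2% higher and 4.33% lower. At an unadjusted p below 0.05 there were 22 of the 30 genes, beside 3379 of all 10726 genes. In both libraries, 29 of the 30 genes were higher than in 0.2% FBS, against 55.2% of all genes, and the exception was Galns. The median change of the 30 genes was 0.71, at 0.60 in replicate 1 and 0.77 in replicate 2, and that of all genes tested was 0.14. Replicate 2 was above replicate 1 in 25 of the 30 genes and in 63.6% of all genes. The median absolute difference between the replicates was 0.13 and the largest was 0.35, in Gla.

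The study's own threshold was a log2 change above 1 or below -1. The mean change passed it in 4 genes, Naglu, Ctsb, Grn and Man2b1, where 1.8% of all genes did so upward. With a pseudocount of 0.1 in place of 1, 4 lysosomal genes passed it, beside 353 in place of 193 of all genes. With the pseudocount of 1, it was passed in both libraries by 3 of the 4, Naglu, Ctsb and Grn, against 0.895% of all genes. Man2b1 missed it in replicate 1, at 0.90, although its FPKM there was 2.11 times the 0.2% FBS value. Each of the 4 had more than doubled, with the mean of the exosome libraries at 2.59, 2.29, 2.24 and 2.33 times the 0.2% FBS value for Naglu, Ctsb, Grn and Man2b1. None of the 30 genes fell past the threshold.

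The limma calls rest on a single pair of replicates and 1 residual degree of freedom. No lysosomal gene was called when a single exosome effect was fitted over the 5 differentiating libraries, when no filter on low values was applied, or when values below 1 FPKM were raised to 1, although 5, 19 and 22 of the genes had an unadjusted p below 0.05 in those fits. In the same 3 fits 0 of all genes tested were called as well, and 708 of 10726, 3120 of 16443 and 2928 of 10726 genes had an unadjusted p below 0.05. The median of all genes moved from 0.14 to -0.0007 when each library was scaled to the same 75th percentile, which also changed the genes past the threshold from 193 higher and 241 lower to 106 higher and 316 lower. After that scaling the lysosomal genes had a median of 0.57, with 12 called higher, against 4.38% of all genes, and 2, Naglu and Ctsb, above 1.

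Among the glycan and glycogen hydrolases, 9 of 11 genes were called higher at a median change of 0.76. Naglu encodes the N-acetylglucosaminidase of heparan sulfate breakdown, lost in Sanfilippo syndrome type B, and lies at chr11:101070012-101077672 on the plus strand of mm10. It stood at 14.6 FPKM in 10% FBS, 18.8 in 2% HS, 21.4 in 2% HS + exosome and 13.4 in 0.2% FBS, against 31.0 and 38.4 in the replicates of 0.2% FBS + exosome. The exosome libraries in 0.2% FBS lay above all others, and the change was 1.30 (SE 0.18, adjusted p 0.00814). Man2b1, lysosomal alpha-mannosidase, at chr8:85083270-85098282 on the plus strand, was at 5.54, 4.57, 4.44 and 3.46 FPKM in 10% FBS, 2% HS, 2% HS + exosome and 0.2% FBS. It reached 7.31 and 8.85 FPKM with exosomes in 0.2% FBS, a change of 1.02 (SE 0.18, adjusted p 0.0153), with no overlap between these 2 libraries and the other 4.

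The remaining calls of this group were 0.65 to 0.96. Hexa, the alpha subunit of beta-hexosaminidase that is lost in Tay-Sachs disease, changed by 0.96 (adjusted p 0.0247), from 88.8 FPKM to 168 and 178 FPKM. Gaa, the acid alpha-glucosidase that degrades lysosomal glycogen and is lost in Pompe disease, changed by 0.83 (adjusted p 0.0276). It read 56.2 FPKM in 0.2% FBS and 96.0 and 105 FPKM with exosomes, against 58.4 to 69.8 FPKM in the other 3 libraries. Beta-mannosidase (Manba), beta-galactosidase (Glb1), alpha-galactosidase A (Gla), the heparan sulfatase Sgsh and beta-glucuronidase (Gusb) rose by 0.79, 0.76, 0.69, 0.67 and 0.65. Gla was the call nearest the limit, at an adjusted p of 0.0492, and its replicates, at 8.43 and 10.98 FPKM, lay on either side of the 8.97 FPKM of 2% HS + exosome.

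The sialidase Neu1 and the sulfatase Galns were not called. Neu1 was at 18.3 and 18.1 FPKM with exosomes and 12.8 FPKM without, a difference of 0.47 (adjusted p 0.0785). Galns, which removes sulfate from keratan sulfate and chondroitin sulfate, had the smallest change of the 30 genes. Its values were 9.93, 13.1, 14.1 and 11.2 FPKM in 10% FBS, 2% HS, 2% HS + exosome and 0.2% FBS, and 10.4 and 11.9 FPKM in 0.2% FBS + exosome. Those replicates fell on both sides of the 0.2% FBS value, and the difference was -0.01 (SE 0.17, adjusted p 0.976).

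Among the proteases, 3 of the 6 tested were called higher, with a median change of 0.63. Ctsb, cathepsin B, at chr14:63122462-63145923 on the plus strand, was at 326 FPKM in 10% FBS, 368 in 2% HS, 406 in 2% HS + exosome and 242 in 0.2% FBS. With exosomes in 0.2% FBS it was at 501 and 608 FPKM, above every other library, and the change was 1.19 (SE 0.29, adjusted p 0.0367). Ctsa, the serine carboxypeptidase that also protects Neu1 and beta-galactosidase, at chr2:164832873-164841032 on the plus strand, was at 73.8, 81.4, 78.1 and 59.0 FPKM in the same 4 libraries. Both replicates with exosomes, at 113 and 119 FPKM, exceeded all of these, a change of 0.97 (SE 0.19, adjusted p 0.0196). Only replicate 2 passed the threshold of 1. Tpp1, the tripeptidyl peptidase lost in a late infantile ceroid lipofuscinosis, rose by 0.73 (adjusted p 0.0327), from 42.4 to 73.9 and 68.4 FPKM.

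The other 3 proteases tested, the abundant Ctsd and Ctsl among them, were not called. Ctsd, at chr7:142375911-142388038 on the minus strand, was at 448 FPKM in 10% FBS, 647 in 2% HS, 557 in 2% HS + exosome and 544 in 0.2% FBS. In 0.2% FBS + exosome it was at 689.8 and 693 FPKM, the highest values, yet the difference of 0.35 had an adjusted p of 0.512. The SE was 0.33, although the SD of the change between the replicates was 0.0041. The fit gives abundant genes, Ctsl and Lamp2 among them, a wider spread than their own replicates show. Ctsl, at chr13:64359337-64370890 on the minus strand, was at 554, 496, 566 and 398 FPKM in those 4 libraries and 547 and 555 FPKM in the last 2. Here the exosome replicates lay close to 10% FBS and 2% HS + exosome, 0.2% FBS alone stood low, and the difference was 0.47 (SE 0.31, adjusted p 0.343). Ctsz, a cysteine carboxypeptidase, had a difference of 0.53 (adjusted p 0.14).

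Several of these genes share sequence with neighbours. Of the 75-base stretches of Ctsd transcripts, 31.3% are also in the overlapping gene model Gm49369, and 5.22% of those of Ctsl are elsewhere, mostly in the pseudogene Gm49230. Exons of Ctsb overlap those of Fdft1 on the opposite strand over 774 bases, and those of Ctsa overlap Pltp over 495 bases. Larger overlaps with the opposite strand are those of Ctsl with Gm47123, over 1742 bases, and of Sgsh with Card14, over 955 bases. Fdft1 was at 77.8 FPKM in 0.2% FBS and 56.7 and 43.8 FPKM with exosomes, while Pltp, at 39.8 FPKM, reached 81.8 and 91.9 FPKM. The library kit keeps strand, but the strand setting behind the FPKM is not given in the sources used here, so reads of such pairs may be shared. Their part in the values was not tested.

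In the group that handles lipids and lipoproteins, 3 of 7 genes were called higher, Arsa, Npc1 and Lipa, at a group median of 0.76. Arsa, the arylsulfatase that removes sulfate from sulfatides and is lost in metachromatic leukodystrophy, had the largest change, at chr15:89472476-89477425 on the minus strand. It was at 15.0, 15.4, 13.7 and 13.2 FPKM in 10% FBS, 2% HS, 2% HS + exosome and 0.2% FBS, a narrow band below the 22.4 and 25.5 FPKM of 0.2% FBS + exosome. The change was 0.82 (SE 0.16, adjusted p 0.0216). Npc1, a membrane protein that exports cholesterol from the lysosome, rose by 0.76 (adjusted p 0.026), and Lipa, the acid lipase that frees that cholesterol from its esters, by 0.60 (adjusted p 0.0458).

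Npc2, the soluble cholesterol carrier that hands its cargo to Npc1, had a similar difference of 0.77 with a wider gap between replicates, 149.9 and 188 FPKM, and was not called (adjusted p 0.0582). Psap, at chr10:60277627-60302597 on the plus strand, was at 677 FPKM in 10% FBS, 699.6 in 2% HS, 720.1 in 2% HS + exosome and 580.3 in 0.2% FBS. With exosomes in 0.2% FBS it was at 951 and 1074 FPKM. Those 2 libraries did not overlap the other 4, but the difference of 0.80 had an SE of 0.36 in a fit that gives abundant genes a wider spread, and the adjusted p was 0.171. Without that trend of spread with level, the adjusted p of Psap was 0.0387. Ppt1, a palmitoyl-protein thioesterase, had a difference of 0.53 (adjusted p 0.0859). Asah1, acid ceramidase, had the smallest of the group, 0.27 (adjusted p 0.367). Its values of 71.0, 94.6, 84.8 and 73.6 FPKM in 10% FBS, 2% HS, 2% HS + exosome and 0.2% FBS spanned those of 0.2% FBS + exosome, 94.0 and 84.6 FPKM.

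Of the membrane proteins, 1 of 5 tested was called higher, and the median was 0.20. The call was Mcoln1, the TRPML1 channel that releases calcium from the lysosome, at chr8:3500457-3515232 on the plus strand. It was at 24.0, 25.2, 24.2 and 20.5 FPKM in 10% FBS, 2% HS, 2% HS + exosome and 0.2% FBS, and at 34.2 and 39.5 FPKM in 0.2% FBS + exosome, a change of 0.81 (SE 0.17, adjusted p 0.0231). Lamp2 was at 184, 203, 219 and 163 FPKM and then at 245 and 251 FPKM, again with no overlap, and its difference of 0.61 was not called (SE 0.23, adjusted p 0.119).

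Lamp1 and Scarb2 were not called, and their libraries with exosomes in 0.2% FBS did not stand above the rest. Lamp1 was at 506 FPKM in 10% FBS, 651 in 2% HS, 735 in 2% HS + exosome, 563 in 0.2% FBS and 668 and 629 FPKM in 0.2% FBS + exosome. Its highest library was 2% HS + exosome, and the difference in 0.2% FBS was 0.20 (SE 0.33, adjusted p 0.721). Scarb2, the receptor that carries glucocerebrosidase to the lysosome, was at 43.1, 48.7, 59.7 and 38.5 FPKM and at 42.6 and 43.7 FPKM in the same order. It too was highest in 2% HS + exosome, and the difference in 0.2% FBS was 0.16 (SE 0.17, adjusted p 0.557). Cd68 had a difference of 0.18 (adjusted p 0.553).

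Progranulin (Grn), at chr11:102430315-102437048 on the plus strand, is a secreted and lysosomal glycoprotein that is cut into granulins and whose loss causes a ceroid lipofuscinosis. It was at 125, 133, 134 and 101 FPKM in 10% FBS, 2% HS, 2% HS + exosome and 0.2% FBS. The replicates of 0.2% FBS + exosome were at 219 and 232 FPKM, well above that band. The change was 1.15 (SE 0.21, adjusted p 0.0177), and both libraries passed the threshold on their own, at 1.11 and 1.19.

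**Figure D2:**
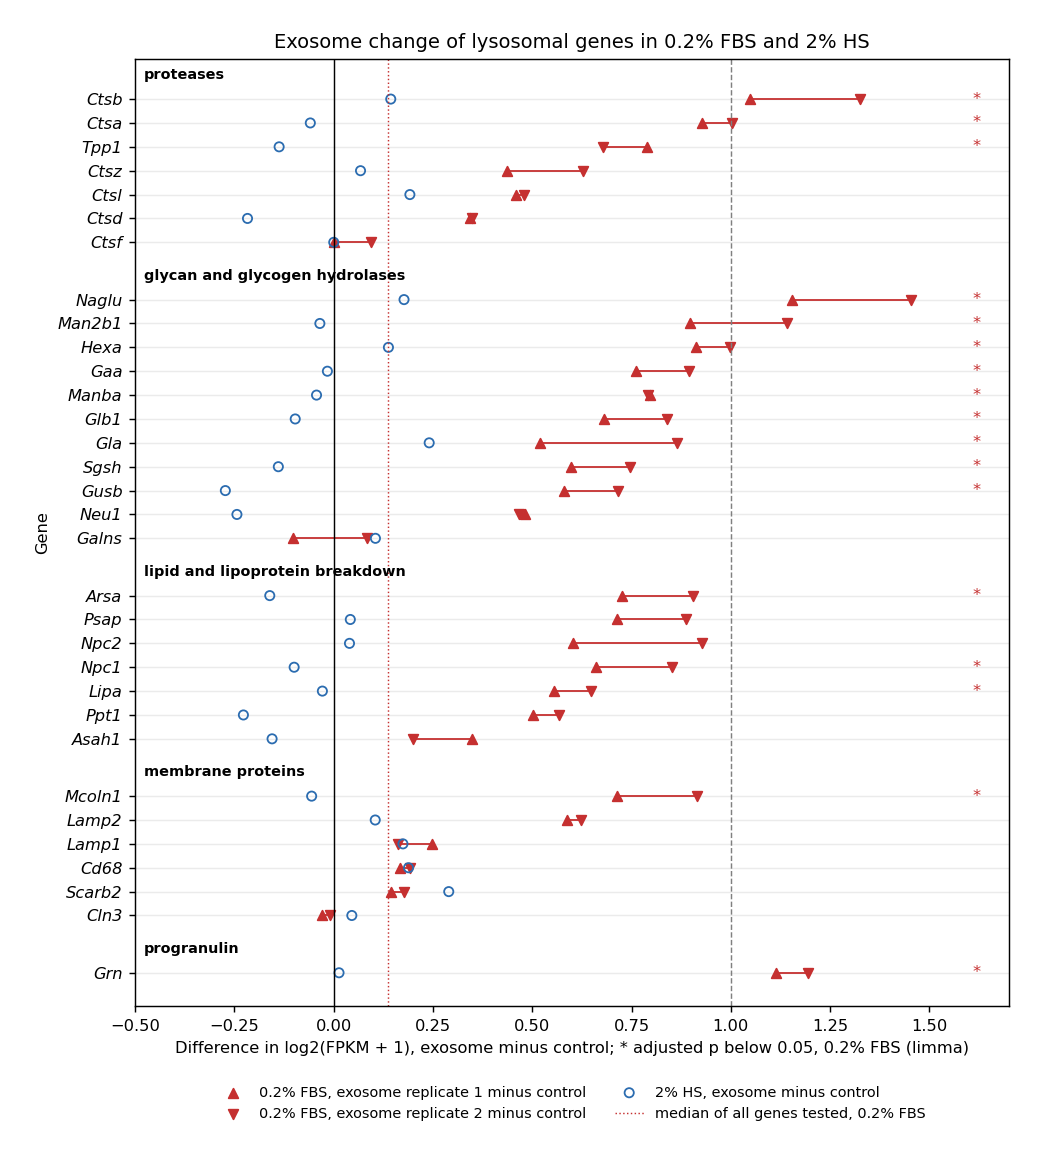
Change of each lysosomal gene with exosomes as a difference in log2(FPKM + 1), for replicates 1 and 2 of 0.2% FBS + exosome against the 0.2% FBS library (red triangles) and for 2% HS + exosome against 2% HS (open circles); the dashed line is the threshold of 1, the dotted line the median of all genes tested in 0.2% FBS, and an asterisk a limma call in 0.2% FBS. The red symbols of 29 of the 30 genes tested lie right of 0 in both replicates, against 55.2% of all genes. The open circles lie on both sides of 0, from -0.27 to 0.29.

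In 2% HS, exosomes gave no common direction. Of the 30 genes, 14 were higher and 16 lower in 2% HS + exosome than in 2% HS, beside 41.3% of all genes higher. The median was -0.02, beside -0.04 over all genes. No lysosomal gene went beyond 1 in either direction, where 0.653% of all genes did. Scarb2 had the largest difference upward, 0.29, and Gusb the largest downward, -0.27. The genes with the largest change in 0.2% FBS were at 0.18 (Naglu), 0.14 (Ctsb), 0.01 (Grn) and -0.03 (Man2b1). With 1 library of each, this comparison has no replicate check.

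The same limma fit also tested how far the exosome change in 0.2% FBS exceeded that in 2% HS. Its median over the 30 genes was 0.79, beside 0.18 over all genes. No lysosomal gene was called, while 1.17% of all genes were, in either direction, and 18 of the 30 had an unadjusted p below 0.05, beside 2091 of all 10726 genes. Naglu had the lowest adjusted p, 0.0864, for a difference of 1.13 (SE 0.28). Grn differed by 1.14 (adjusted p 0.119), Man2b1 by 1.05 (adjusted p 0.0963), Ctsb by 1.04 (adjusted p 0.253) and Ctsa by 1.02 (adjusted p 0.112). The effect in 0.2% FBS was therefore not shown by this test to differ from that in 2% HS for any single lysosomal gene.

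The 0.2% FBS library serves as the only control of the exosome libraries in that medium, and it was low for these genes. It was the lowest of the 6 libraries in 22 of the 30 genes, against 18% of all genes. The 8 others were Asah1, Cd68, Ctsd, Ctsz, Galns, Lamp1, Neu1 and Npc2. Against 2% HS it was lower in 28 of 30 genes, all but Cd68 and Npc2, where 53.7% of all genes were lower. The median difference was -0.32, beside -0.01 over all genes, and the range was -0.60 (Ctsb) to 0.22 (Cd68). None of the 30 went beyond 1, and 0.531% of all genes did.

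Both libraries of 0.2% FBS + exosome lay above all 4 other libraries in 24 of the 30 genes, against 27.8% of all genes. The 6 exceptions were Asah1, Ctsl, Galns, Gla, Lamp1 and Scarb2. With 2% HS as the reference in place of 0.2% FBS, an alternative chosen after the values were seen, 26 of the 30 genes were higher in 0.2% FBS + exosome, against 63.2% of all genes. The 4 that were lower were Asah1, Galns, Lamp1 and Scarb2. The median was then 0.41, from -0.21 to 0.84, and that of all genes 0.13. With libraries scaled to an equal 75th percentile, 20 of the 30 genes were above the other 4 libraries, as were 16.4% of all genes.

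**Figure D3:**
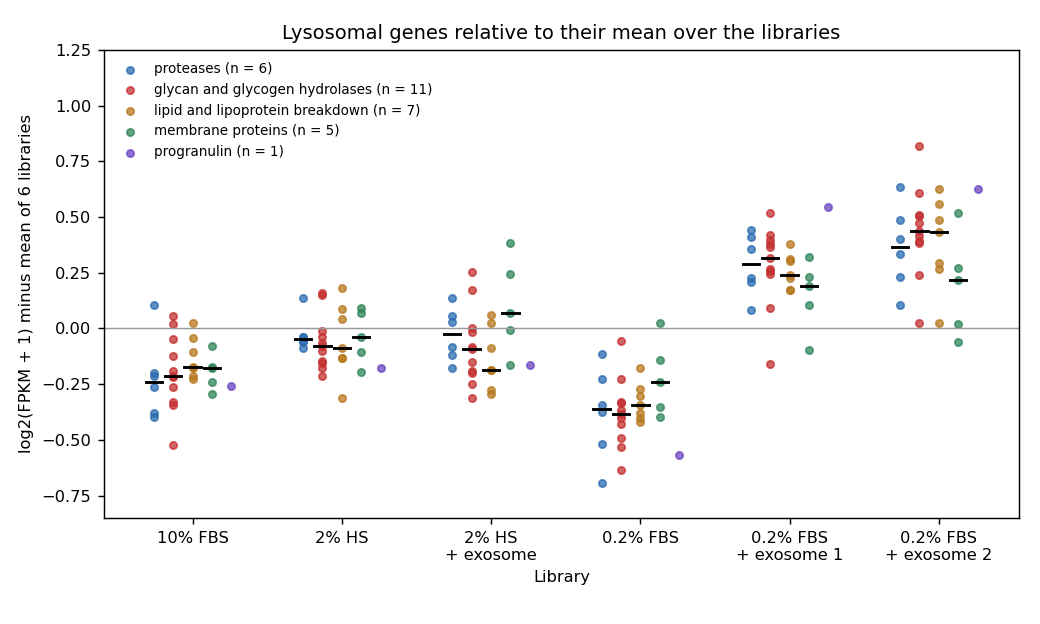
Level of the 30 lysosomal genes tested in each library, as log2(FPKM + 1) minus the gene's mean over the 6 libraries; points are genes, coloured by role, and black bars are role medians. All role medians are lowest in 0.2% FBS and highest in the 2 libraries of 0.2% FBS + exosome.

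Against growth in 10% FBS, lysosomal genes stayed within the threshold when serum alone was changed. In 2% HS, 24 of the 30 were higher and 6 lower, beside 40.1% of all genes that were higher, with a median of 0.14 beside -0.08 over all genes. The largest differences were in Ctsd (0.53), Neu1 (0.50) and Asah1 (0.41). In 0.2% FBS, 7 were higher and 23 lower, beside 61.5% of all genes that were lower, with a median of -0.17 beside -0.09. Man2b1 (-0.55), Ctsl (-0.48), Npc1 (-0.44) and Ctsb (-0.43) were lowest, and Ctsd (0.28) and Cd68 (0.26) highest. No lysosomal gene went beyond 1 in either medium, where 2.31% of all genes did in 2% HS and 2.48% in 0.2% FBS.

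Cells in 0.2% FBS + exosome were also set against the growing cells. Of the 30 genes, 29 were higher than in 10% FBS, all but Ctsl at -0.01, beside 56.4% of all genes, with a median of 0.51 beside 0.04 over all genes. Naglu was the 1 gene above 1, at 1.19 (SE 0.18), where 0.513% of all genes were. Limma called none of the 30, and 0.0653% of all genes, in either direction. There were 18 lysosomal genes at an unadjusted p below 0.05, beside 1232 of all 10726 genes, and the lowest adjusted p was 0.0987, for Naglu. After Naglu came Grn at 0.84 and Gaa at 0.77.

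Other genes of the lysosomal pathway were taken from lists by role, which were chosen with earlier results of these data known. Of 33 further lysosomal hydrolases, 27 were tested. Limma called 16 higher and 0 lower in 0.2% FBS with exosomes, beside 8.2% and 4.33% of all genes. The median of the 27 was 0.64, beside 0.14 over all genes tested. Dpp7, a dipeptidyl peptidase, passed the threshold in both libraries. It was at 23.4, 27.5, 25.2 and 18.2 FPKM in 10% FBS, 2% HS, 2% HS + exosome and 0.2% FBS and at 45.5 and 41.3 FPKM in 0.2% FBS + exosome, a change of 1.21 (adjusted p 0.0077). Its replicates with exosomes exceeded every other library and 0.2% FBS was the lowest.

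Of the further membrane proteins of the lysosome, 8 of 24 tested were called higher and none lower, beside 8.2% and 4.33% of all genes. The median was 0.31, beside 0.14 over all genes tested. Genes that sort enzymes to the lysosome were called higher in 2 of 22, beside 8.2% of all genes, so this count is near the background. Their median was 0.29. The 2 called, Nagpa and Sumf1, were named after their values were seen. Nagpa uncovers the mannose 6-phosphate tag and changed by 0.82 (adjusted p 0.0216), and Sumf1 activates the sulfatases and changed by 0.72 (adjusted p 0.0265). No gene of these lists passed the threshold in both libraries. In 2% HS the medians of the hydrolases, the membrane proteins and the sorting genes were -0.10, -0.03 and -0.07.

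Regulators of lysosomal genes were called higher in 5 of 21 tested, beside 8.2% of all genes, at a median of 0.24. None was called lower, beside 4.33% of all genes. In both libraries, 4 of the 21 (19.0%) were lower, a share below the 27.5% of all genes. Tfeb was at 4.18, 4.58, 3.74 and 5.66 FPKM in 10% FBS, 2% HS, 2% HS + exosome and 0.2% FBS and at 5.35 and 5.75 FPKM in 0.2% FBS + exosome. The replicates lay on both sides of the 0.2% FBS value, a difference of -0.03 (SE 0.17, adjusted p 0.937). Tfe3 was at 17.4, 10.6, 10.2 and 11.9 FPKM and then at 18.9 and 23.8 FPKM, a change of 0.78 (SE 0.18, adjusted p 0.0306), and the 10% FBS library was close to the lower replicate. Mitf, a related factor, was at 2.57, 2.11, 2.69 and 2.19 FPKM and at 2.38 and 3.88 FPKM, and was not called (0.35, SE 0.24, adjusted p 0.353). TFEB and TFE3 are known to be controlled by their location in the cell, which transcript levels do not report. The other 4 calls, chosen here after their values were seen, were Zkscan3 (0.72), a repressor of autophagy and lysosome genes, Fnip2 (0.72) and Flcn (0.64), partners at the lysosomal surface, and the GTPase Rragc (0.71). Among the regulators lower in both libraries, also named after their values were seen, were Rptor at -0.54 (adjusted p 0.0577) and the kinase Mtor at -0.40 (adjusted p 0.126).

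**Figure D4:**
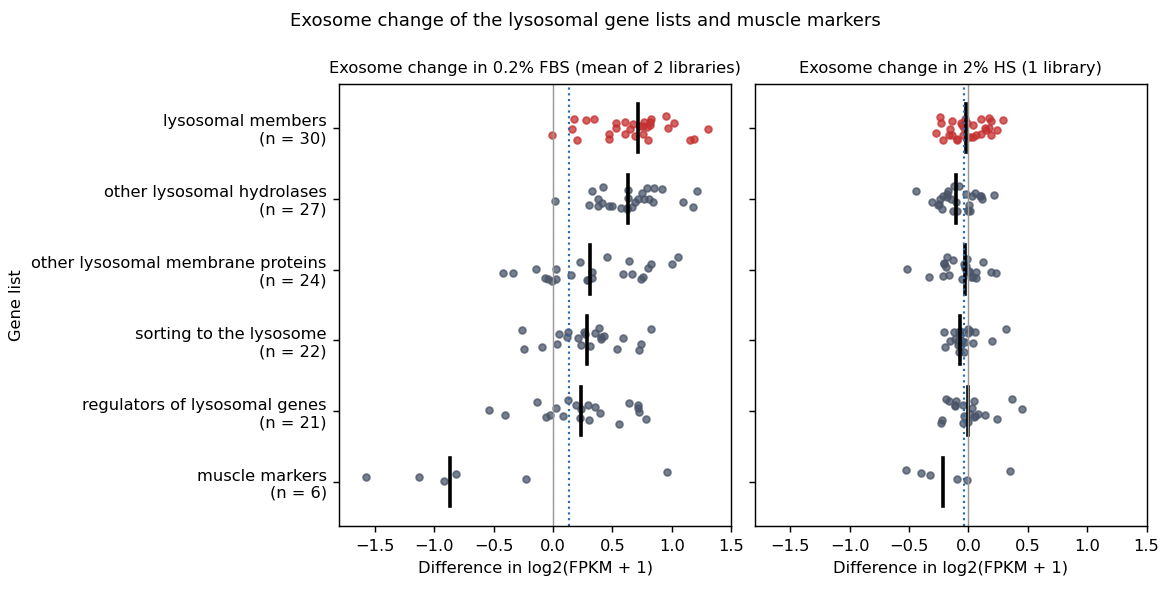
Exosome change of the lysosomal genes, of the other lysosomal lists and of 6 muscle markers in 0.2% FBS (left, mean of 2 libraries) and in 2% HS (right, 1 library), as a difference in log2(FPKM + 1); points are genes that averaged 1 FPKM or more, black bars are medians and dotted lines the medians of all genes tested. In 0.2% FBS the medians are 0.71 for the lysosomal genes, 0.64 for the other hydrolases and -0.87 for the muscle markers, and in 2% HS the median of the lysosomal genes is -0.02.

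Muscle markers were mostly lower in the same libraries. Of 6 markers, 5 were lower in both libraries of 0.2% FBS + exosome, beside 27.5% of all genes, at a median of -0.87 over the 6. Limma called 0 of the 5 lower, beside 4.33% of all genes. An unadjusted p below 0.05 was found for 5 of the 6 markers, beside 3379 of all 10726 genes. Embryonic myosin Myh3 was at 1604 FPKM in 0.2% FBS and 713 and 404 FPKM with exosomes, and the muscle creatine kinase Ckm at 734 and then 392 and 288 FPKM. Their adjusted p was 0.0587 and 0.062, whereas Myf5, a factor of undifferentiated myoblasts, was called higher at 0.96 (adjusted p 0.0196). The summed level of the 11 macrophage and leukocyte markers was 4.83 to 6.06 FPKM in the 4 other libraries and 8.54 and 9.04 FPKM in 0.2% FBS + exosome. Most of it came from Cd14, at 2.57 to 4.34 and then 5.33 and 6.13 FPKM (0.80, adjusted p 0.0267), and from Cd53, at 0.396 to 0.878 and then 1.241 and 1.249 FPKM, and Lyz2, at 0.813 to 1.19 and then 1.46 and 1.04 FPKM. Tyrobp and Fcer1g were listed at 0 in the other 4 libraries and reached 0.243 and 0.0646 FPKM at most with exosomes in 0.2% FBS. The pan-leukocyte gene Ptprc and the macrophage genes Csf1r, Adgre1 and Aif1 were below 0.1 FPKM in every library, and Itgam and Mpeg1 below 0.35 FPKM. The part of the state of differentiation and of these markers in the lysosomal values was not tested.

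The promoters of the lysosomal genes were searched for the core of the CLEAR element described above. RefSeq promoters on GRCm38.p6, from 250 bases before to 50 after each start, were found for 28 of the 32 genes. Asah1, Ctsb, Galns and Npc1 had no entry. The motifs were TCACGTGA, TCACGTG and CACGTG on either strand, each of which is part of the one before it. Of the 26 that were also tested, TCACGTGA was in 4 (15.4%), against 2.42% of 8220 genes tested. TCACGTG was in 10 (38.5%, against 7.4%), and CACGTG in 11 (42.3%, against 12.2%). The untested Cln3 holds TCACGTGA and the untested Ctsf holds CACGTG. The other lists were counted over all of their genes with a promoter. Among all 27025 genes with a promoter, CACGTG was in 8.09%, TCACGTG in 4.29% and TCACGTGA in 1.13%. Of the further lysosomal hydrolases, whose median change in 0.2% FBS was 0.64, 3 of 23 hold CACGTG and 2 hold TCACGTGA. Of the sorting genes, with a median change of 0.29, 6 of 18 (33.3%) hold CACGTG and 4 (22.2%) hold TCACGTGA. Of the further membrane proteins, 12.5% of 24 hold each motif. Of the regulators, 28.6% of 21 hold CACGTG and 0 hold TCACGTGA. Such a match is a run of letters and not a shown binding site.

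The matches below are those of called genes from 4 role groups and of 2 abundant genes that were not called, so that both can be seen. Capitals mark the motif, all are read 5′ to 3′ on the strand of the gene, and the stretches end before the start site.
Naglu: caaccttcaggTCACGTGgcccgaggtcg
Gaa: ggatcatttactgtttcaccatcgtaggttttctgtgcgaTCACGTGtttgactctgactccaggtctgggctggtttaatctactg
Glb1: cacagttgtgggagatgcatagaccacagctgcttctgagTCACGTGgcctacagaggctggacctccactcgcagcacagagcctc
Gla: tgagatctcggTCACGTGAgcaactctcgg
Sgsh: ggcctgccgtgCACGTGAccgtggggagc
Arsa: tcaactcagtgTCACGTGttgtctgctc
Mcoln1: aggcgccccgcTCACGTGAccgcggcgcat
Ctsa: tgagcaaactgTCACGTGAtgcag
Ctsd: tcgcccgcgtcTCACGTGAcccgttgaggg
Lamp1: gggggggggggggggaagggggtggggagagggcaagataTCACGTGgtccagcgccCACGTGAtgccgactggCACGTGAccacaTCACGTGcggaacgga

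The Naglu stretch is chr11:101070009-101070037, with the motif starting 74 bases before the RefSeq start site. For Gaa it is chr11:119267782-119267868 with the motif at 141 bases, and for Glb1 chr9:114400989-114401075 at 49 bases. Those of Gla (chrX:134601182-134601211), Sgsh (chr11:119355522-119355550) and Arsa (chr15:89477425-89477452) are on the minus strand, with motifs 195, 29 and 17 bases before the start. Gla has a further match 228 bases before the start. Mcoln1 (chr8:3500462-3500491) has its motif at 46 bases and Ctsa (chr2:164833749-164833772), at the later of its 2 RefSeq starts, at 13 bases. Ctsd (chr7:142387908-142387937, minus strand) has one at 99 bases.

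Lamp1 (chr8:13159059-13159160) holds 4 matches within 62 bases of its start, more than any other of the 28 genes, and its change in 0.2% FBS was 0.20. Ctsd, with the full TCACGTGA, was at 0.35. Grn, Man2b1 and Hexa, which were among the genes with the largest changes, have none of the 3 motifs in these windows. Over the genes tested, the median change was 0.79 for the 10 with TCACGTG and 0.63 for the 16 without it, and the ranges of 0.20 to 1.30 and 0.16 to 1.15 overlapped almost wholly.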

How the data were processed

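RNA of 6 C2C12 libraries was read as 75 bp single-end reads from a TruSeq Stranded mRNA kit. The authors trimmed reads with cutadapt (1.9.1, also in the submitters' processing notes), mapped them to mm10 with TopHat2 (2.1.0) and deposited FPKM from Cufflinks as 1 table. FPKM already divides by length and depth, and no counts were used. The lysosomal genes and all lists were chosen with earlier results of these data known. No column was left unmatched.

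Values were taken as log2(FPKM + 1). Genes that averaged 1 FPKM or more were tested (10726, without 10 entries whose name repeats). The test was limma 3.58.1 in R 4.3.3 with 1 mean per condition, a trend of spread with level and Benjamini-Hochberg adjustment. Simulated data served only to check the code, since their changes were larger than those of the lysosomal genes. The 1 residual degree of freedom comes from the 2 libraries of 0.2% FBS + exosome, and single libraries are assumed to vary like them. Comparisons of 1 library with 1 have no test. The fold threshold of 1 (log2) follows the study's methods.

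All 32 lysosomal genes were accounted for. Values in every library were given for those past the threshold in either exosome library of 0.2% FBS, the 6 highest and the smallest and largest change of each role. From other lists, genes past the threshold in both libraries, Tfeb, Tfe3 and Mitf were named, apart from an item that is not reported here.

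Depth was estimated, not counted: it is the depth at which low FPKM values of genes with 1 transcript come nearest to whole reads (within 0.1 read, for an assumed 200-base fragment), which 73.2% to 75.4% of the values did. Positions are from GENCODE vM21 on mm10, promoters from RefSeq on GRCm38.p6. Alternatives were a pseudocount of 0.1, a floor of 1 FPKM, no filter, scaling to the same 75th percentile or sum, other limma fits and leaving out either replicate. 2 were added after the values were seen, 2% HS as the reference and scaled counts of libraries above the other 4.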

Additional observations from a re-analysis of the deposited data

How the results depend on the processing

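In 0.2% FBS, 29 of the 30 lysosomal genes tested kept their direction under all alternatives that keep 0.2% FBS as the reference. With 2% HS as the reference, Asah1, Lamp1, Scarb2 and Galns were lower with exosomes. The exception with 0.2% FBS was Galns, whose difference near 0 changed sign: 0.0038 with libraries scaled to the same sum, 0.0396 with 1 exosome effect over 5 libraries, and -0.101 to 0.0826 when either replicate was left out. In place of 17 limma calls there were 17 with a pseudocount of 0.1, 16 in a fit of the 0.2% FBS libraries alone, 14 without a trend, 12 with the same 75th percentile and 11 with the same sum, where 9.0%, 8.18%, 5.78%, 4.38% and 3.22% of all genes were called higher. Without a trend 4 of the 17 were lost and Psap was gained. There were 0 with 1 exosome effect over 5 libraries, 0 with no filter and 0 with values below 1 FPKM raised to 1, at unadjusted p below 0.05 for 5, 19 and 22 genes and lowest adjusted p of 0.705, 0.244 and 0.134, and in these 3 fits 0 of all genes were called, with 708 of 10726, 3120 of 16443 and 2928 of 10726 at an unadjusted p below 0.05. The cause was not tested. Scaling to the same 75th percentile gave 2 genes above 1 in place of 4, a median of 0.566 in place of 0.71, a median difference between media of 0.595 in place of 0.79 and a median against 2% HS of 0.286 in place of 0.41, since it lowers the median of all genes as well. It also moved the median in 2% HS from -0.02 to 0.0154. Without either replicate the median in 0.2% FBS was 0.6 to 0.769 and 3 to 5 genes passed 1; limma could not be fitted, as no residual degree of freedom is left. No paired analysis was possible because only 1 condition has more than 1 replicate.

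Counting error matters for few of these genes: at the estimated depth it is 0.207 (log2) for Cd68, 0.077 for Sgsh, 0.073 for Manba and less for the others tested. What limits the comparisons is that 4 of the 5 conditions have 1 library, and that 0.2% FBS alone is the control of the 2 exosome libraries in its medium. Genes with overlapping or copied sequence, Ctsd, Ctsl, Ctsb, Ctsa, Hexa, Sgsh and Arsa among them, may hold reads of another gene.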
